A study of Thermothelomyces thermophilus ATCC 42464 with 24 samples.

Results

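The genes ganA (Mycth_43163), phy1 (Mycth_104551) and lcc1 (Mycth_51627) of Myceliophthora thermophila, a thermophilic fungus that degrades plant biomass, encode a galactanase, a phytase and a laccase, enzymes that are secreted from the hyphae. They were chosen by name and gene ID as 3 of the 9110 genes in the count table, and their RNA levels were followed through every condition of the study. RNA was sequenced from mycelium grown at 45 °C, in 23 usable libraries that fall into 12 groups. Cultures on 2% glucose, harvested at 24 h, gave 2 libraries for each of the labels Δcre-1, Δgrf-3, Δgrf-1 and ΔlaeA, 1 for Δgrf-2 and 2 for the wild type (WT), which is ATCC 42464. Cultures on 2% Avicel, which is microcrystalline cellulose, gave 2 libraries of ΔlaeA and 2 of WT on each of 3 days, at 2, 4 and 6 d. The study deleted laeA, which encodes a putative methyltransferase, to ask how it acts on growth and cellulase expression, and also deleted cre-1 and the 3 grf genes, which it describes as growth regulatory factors. According to its methods each coding region was replaced by a marker gene cassette with the help of Cas9, and transformants were checked by PCR. The labels give replicate numbers but name no separate cultures, while the study's text speaks of biological replicates for the Avicel time course, so the p-values rest on the spread among the libraries at hand, which on glucose may be technical.

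Galactanases cut the galactan side chains of pectin and release galactose and short galacto-oligosaccharides. Phytases take phosphate off phytic acid, the main store of phosphorus in plant seeds. Laccases are multicopper oxidases that pass electrons from phenolic compounds to oxygen and, in fungi, have been linked to lignin breakdown, pigment formation and detoxification of phenols. The 3 enzymes thus act on different plant materials, and none of them cuts cellulose, the polymer that Avicel offers.

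Between 18114947 and 33937501 counts were read per library, and the floor of 3 counts came to 0.0986 to 0.197 CPM, which are counts per 1000000 of a library's total after TMM scaling. The pairs of Δgrf-3, of WT on Avicel at 4 d and of WT on glucose stood apart most, with 949, 414 and 378 genes of 10 or more counts at least 2-fold apart, against 7 to 163 genes in the other pairs. The counts of the deleted genes did not bear out the labels, and only grf-2 was lower in its own strain, as it was on glucose under every other deletion label. laeA stood at 222 to 304 CPM in the 8 libraries labelled ΔlaeA and at 7.43 to 128 CPM in the 8 WT libraries, and cre-1 was at 2215 and 2319 CPM under the label Δcre-1 and at 439 and 738 CPM in WT on glucose. grf-1 and grf-3 had 192 to 195 CPM and 65.6 to 90.4 CPM in the libraries labelled with their deletions, against 111 to 187 CPM and 53.7 to 61.9 CPM in WT on glucose. Over all 8 WT libraries they ranged from 71.8 to 210 CPM and from 32.6 to 73.2 CPM. grf-2 had 107 CPM against 179 to 183 CPM in WT on glucose, with means of 80.5 to 107 CPM in the other labelled strains on glucose. The strain names used below are therefore labels only, and each direction given holds only if the labels do.

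The 3 genes differed in how far they ranged over the conditions. Per length, in RPKM (the CPM per kilobase of counted length), group means of phy1 lay between 16.8 in ΔlaeA on Avicel at 4 d and 66.6 in Δcre-1, above 37.0% and 75.2% of 8787 genes. ganA ranged from 3.06 RPKM in Δgrf-3 to 34.5 RPKM in ΔlaeA on Avicel at 4 d, above 14.7% and 58.8% of genes. lcc1 was the weakest of the 3 in every group except WT on Avicel at 6 d, where it passed ganA, with means from 0.0131 RPKM in WT on glucose to 6.31 RPKM in WT on Avicel at 6 d, which is above 0.114% and 15.7% of genes. The SD of the 12 group means on the log2 CPM scale was 1.22 for ganA, 0.47 for phy1 and 1.85 for lcc1, larger than that of 84.8%, 39.9% and 93.5% of the 8827 genes tested. In the order of levels, every neighbouring pair of groups overlapped for ganA except the Δgrf-2 library and WT on glucose. For phy1 the Δcre-1 group at the top and the ΔlaeA group at 4 d at the bottom stood clear of their neighbours. Between them WT on Avicel at 2 d and the Δgrf-2 library also did, and for lcc1 the WT groups at 6 d and at 2 d did. The share of all genes with such gaps was not taken, so this order is a description only. phy1 was thus the steady, moderately expressed gene and ganA switched between a low and a higher level. lcc1 was scarce throughout, and least so late on Avicel in WT.

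**Figure D1:**
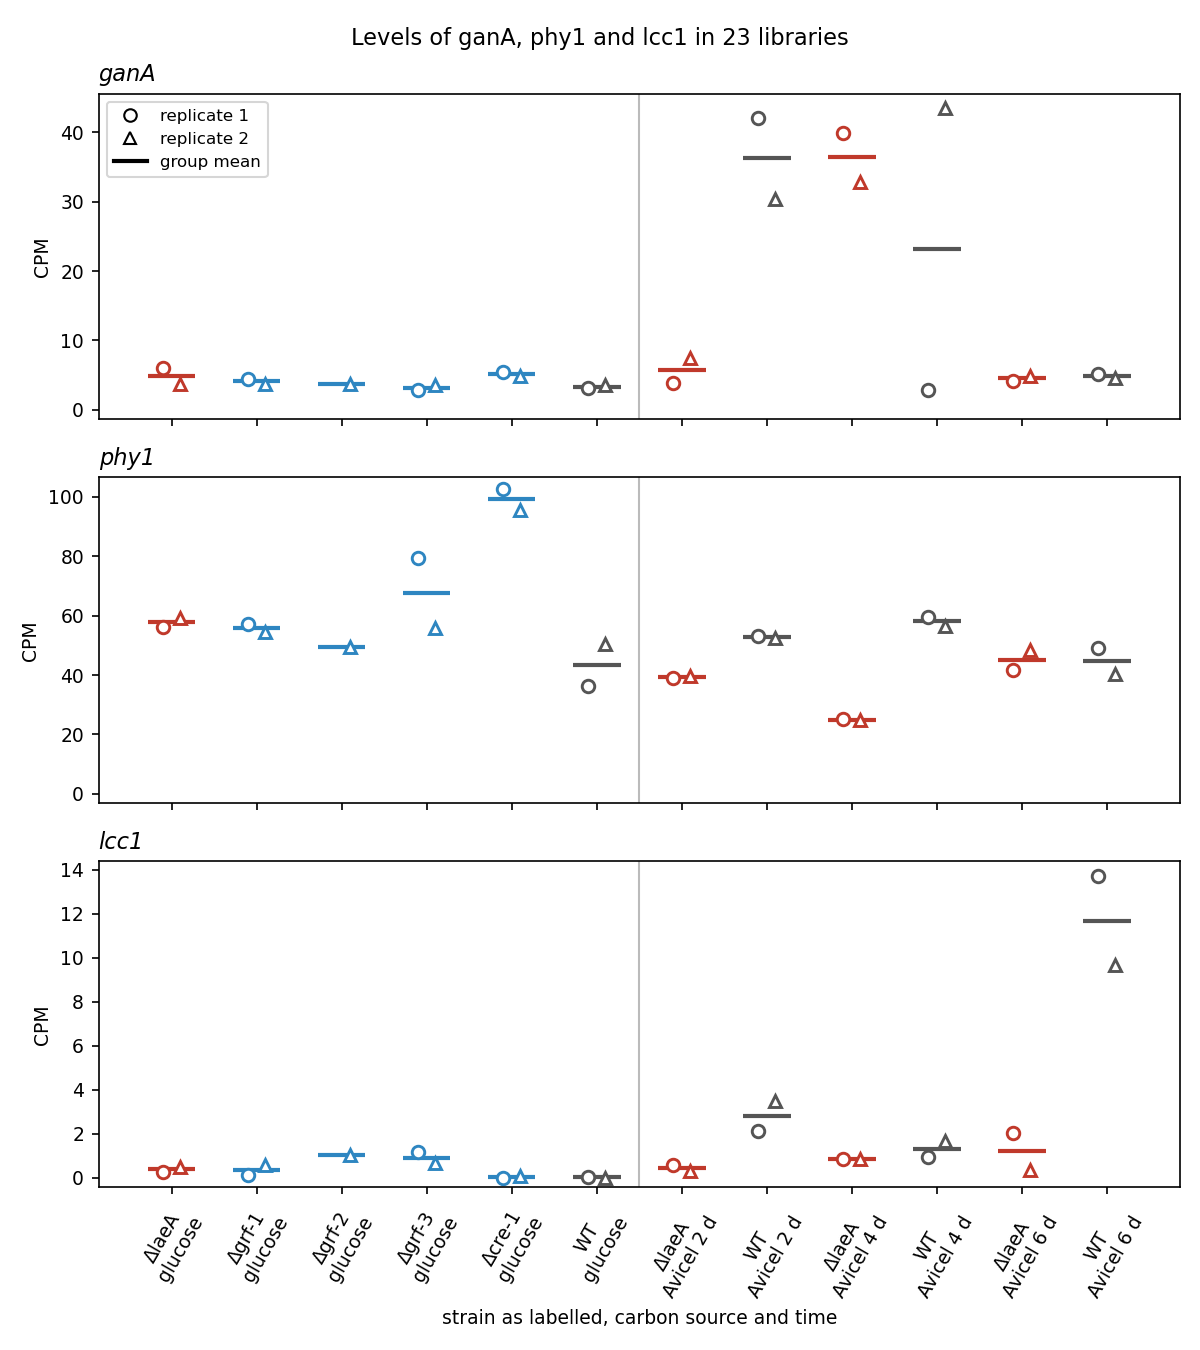
Levels of ganA, phy1 and lcc1 in CPM (vertical axes) in each library of the 12 groups (horizontal axis), with circles for replicate 1, triangles for replicate 2 and bars for group means, in red for ΔlaeA, blue for the other labelled deletions and grey for WT. ganA stood at 2.83 to 6.02 CPM on glucose and above 30 CPM in 5 Avicel libraries, phy1 was highest in the libraries labelled Δcre-1, and lcc1 was highest in WT on Avicel at 6 d.

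A gene was called where the edgeR quasi-likelihood test gave a Benjamini-Hochberg adjusted p below 0.05 over all 8827 genes and the fold change was at least 2-fold, and log2 values are given ± SE. Over 17 comparisons ganA was called in 6, phy1 in 3 and lcc1 in 8. Each comparison called between 5.08% and 35.6% of all genes, so these counts alone are not read as a result. Whether libraries overlapped with WT or lay above or below it is likewise a description only. The share of all genes that lay so was not taken. In RNA from whole mycelium, fewer hyphae that express a gene and less RNA per hypha cannot be told apart. Steps from glucose to Avicel at 2 d change carbon source and culture age together, as glucose cultures were harvested at 24 h. These also cannot be told apart.

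ganA was low on glucose in every strain. It had 6.02 and 3.72 CPM in the libraries labelled ΔlaeA, 4.45 and 3.79 CPM in Δgrf-1, 3.80 CPM in the Δgrf-2 library, 2.83 and 3.61 CPM in Δgrf-3 and 5.42 and 4.91 CPM in Δcre-1, against 3.11 and 3.57 CPM in WT. Both Δcre-1 libraries, both Δgrf-1 libraries, both ΔlaeA libraries and the Δgrf-2 library lay above both WT libraries, while those of Δgrf-3 overlapped with WT. All strains were set against the same WT libraries, so these positions are not independent and are not read as a result. None of these 5 differences was called, in comparisons that called 11.9% of all genes for ΔlaeA, 15% for Δgrf-1, 5.08% for Δgrf-2, 13.5% for Δgrf-3 and 35.6% for Δcre-1. The log2 fold change ran from -0.05 ± 0.80 in Δgrf-3 to 0.63 ± 0.80 in Δcre-1, with edgeR quasi-likelihood adjusted p from 0.520 to 0.970. The widest interval, that of the single Δgrf-2 library, reached from -1.89 to 2.26, and changes within it were not detectable.

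On Avicel ganA was lower in ΔlaeA than in WT at 2 d, when WT held one of its highest levels. ganA had 3.88 and 7.54 CPM in ΔlaeA at 2 d, against 42.0 and 30.4 CPM in WT. The groups did not overlap, and of the ΔlaeA libraries replicate 1 lay within the range of the glucose libraries and replicate 2 above it. The log2 fold change was -2.66 ± 0.76 (95% interval -4.30 to -1.03, edgeR quasi-likelihood adjusted p = 0.0145). The call ended without replicate 1 of WT at 2 d (-2.36, adjusted p = 0.0653) and without replicate 1 of ΔlaeA at 2 d (-2.26, adjusted p = 0.116). In this comparison 15.5% of all genes were called, and 2 of the 3 enzyme genes were.

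At 4 d the WT libraries disagreed, and no statement on ganA in WT at that day holds for both. ganA had 39.9 and 32.9 CPM in ΔlaeA at 4 d, against 2.93 CPM in replicate 1 and 43.5 CPM in replicate 2 of WT. Replicate 1 of WT was thus as low as glucose cultures, and replicate 2 was the highest library of the series. This gap of 3.85 on the log2 scale was larger than that of 99.6% of genes in the same pair. The difference between ΔlaeA and WT was 0.64 ± 0.70 and was not called (edgeR quasi-likelihood adjusted p = 0.496), but it was -0.26 without replicate 1 of WT and 3.63, with adjusted p = 9.88e-06, without replicate 2. Of all genes 19.1% were called at 4 d.

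At 6 d ganA was low again in both strains, with 4.17 and 4.89 CPM in ΔlaeA against 5.18 and 4.57 CPM in WT. These groups overlapped, and the log2 difference of -0.11 ± 0.76 had an interval of -1.74 to 1.52, on a day when 10.4% of all genes were called.

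Within ΔlaeA, ganA at 2 d differed from glucose by only 0.23 ± 0.76 (adjusted p = 0.848), rose by 2.67 ± 0.76 between 2 and 4 d (edgeR quasi-likelihood adjusted p = 0.00978) and fell by 3.01 on the log2 scale (SE 0.77, adjusted p = 0.00535) between 4 and 6 d. The rise was not called without replicate 1 of ΔlaeA at 2 d (2.27, adjusted p = 0.0845). The percentage of all genes called was 12% for the first of these steps, 23.6% for the second and 25.5% for the third.

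Within WT, ganA was already high at 2 d. It rose by 3.44 ± 0.80 on Avicel at 2 d against glucose (95% interval 1.71 to 5.16, edgeR quasi-likelihood adjusted p = 0.00444), a call that held without any single library of the groups compared (3.18 to 3.65). Of all genes 15.6% were called in that step. Between 2 and 4 d the WT difference was -0.63 ± 0.70 and not called, with 0.27 without replicate 1 at 4 d and -3.63 (called) without replicate 2. Between 4 and 6 d it was -2.26 ± 0.75 (adjusted p = 0.0262), with -3.17 without replicate 1 at 4 d, but 0.73 and not called without replicate 2. This call also ended without either WT library at 6 d (-2.36 and -2.22). In these later WT steps 19% and 19.9% of all genes were called.

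Whether the step itself differed between the strains was tested as an interaction, the change in ΔlaeA minus the change in WT. For ganA between 2 and 4 d it was 3.30 ± 1.03 (edgeR quasi-likelihood adjusted p = 0.0238), and 23.7% of all genes were called in that test. Without replicate 1 of WT at 4 d it was 2.36 and without replicate 2 it was 6.30, both called. It was not called without replicate 1 of WT at 2 d (2.99), of ΔlaeA at 2 d (2.90) or of ΔlaeA at 4 d (3.11). Between 4 and 6 d the interaction was -0.74 ± 1.03 and not called, in a test that called 23.8% of all genes, but -3.74 and called without replicate 2 of WT at 4 d. Between glucose and Avicel at 2 d the interaction was -3.20 ± 1.09, which missed the threshold (adjusted p = 0.0522), and 12.5% of all genes were called. The ΔlaeA libraries at 4 d, at 36.4 ± 4.97 CPM, stood beside WT at 2 d, at 36.2 ± 8.18 CPM (mean ± SD, n = 2 each).

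ganA was compared with genes of neighbouring function. GH61 proteins are lytic polysaccharide monooxygenases, copper enzymes that cleave cellulose chains by oxidation, and 8 of their genes were read. At 2 d 7 of the 8 were called lower in ΔlaeA than in WT and none higher, with a median log2 fold change of -3.87 against -0.03 over all genes, of which 10.7% were called lower. Without 1 library of these groups 5 to 7 were called lower. The GH61A gene Mycth_112089 had 246 CPM in ΔlaeA against 7318 CPM in WT (log2 -4.90 ± 0.93, edgeR quasi-likelihood adjusted p = 0.00123), and gave -5.61 without replicate 2 of ΔlaeA. Between 2 and 4 d in ΔlaeA 7 of the 8 rose, with a median of 3.75 against 0.06 over all genes, and between 4 and 6 d 7 fell, with a median of -4.47 against 0.01. Of all genes 13.4% rose in the first of these steps and 13% fell in the second. The interaction between 2 and 4 d was called in the same direction as for ganA in all 8 genes, with a median of 5.10, in a test that called 12.9% of all genes in that direction. At 6 d, where ganA was not called, 5 of the 8 GH61 genes were called higher in ΔlaeA and none lower, with a median of 2.50, while 2.41% of all genes were called higher. Without 1 library of these groups 1 to 3 of them were called. These GH61 comparisons share their libraries with those of ganA, so the values are given side by side only.

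Summed over the 8 GH61 genes, the level was 486 and 825 CPM in ΔlaeA at 2 d against 10881 and 10586 CPM in WT. Mycth_112089 alone held the larger part of that WT level, so the sum follows the strongest genes more than the list as a whole. At 4 d it was 17699 and 13502 CPM in ΔlaeA against 1247 CPM in replicate 1 and 11659 CPM in replicate 2 of WT. At 6 d it was 746 and 713 CPM in ΔlaeA against 77.3 and 119 CPM in WT. Replicate 1 of WT at 4 d was therefore low for the GH61 genes as well as for ganA. The cellulase activator genes clr-1, clr-2 and xlnR, summed, also differed between these WT libraries, with 513 CPM in replicate 1 and 1312 CPM in replicate 2, and stood at 3633 and 3692 CPM in ΔlaeA at 4 d. The part of such a library difference in the results at 4 d was not tested.

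**Figure D2:**
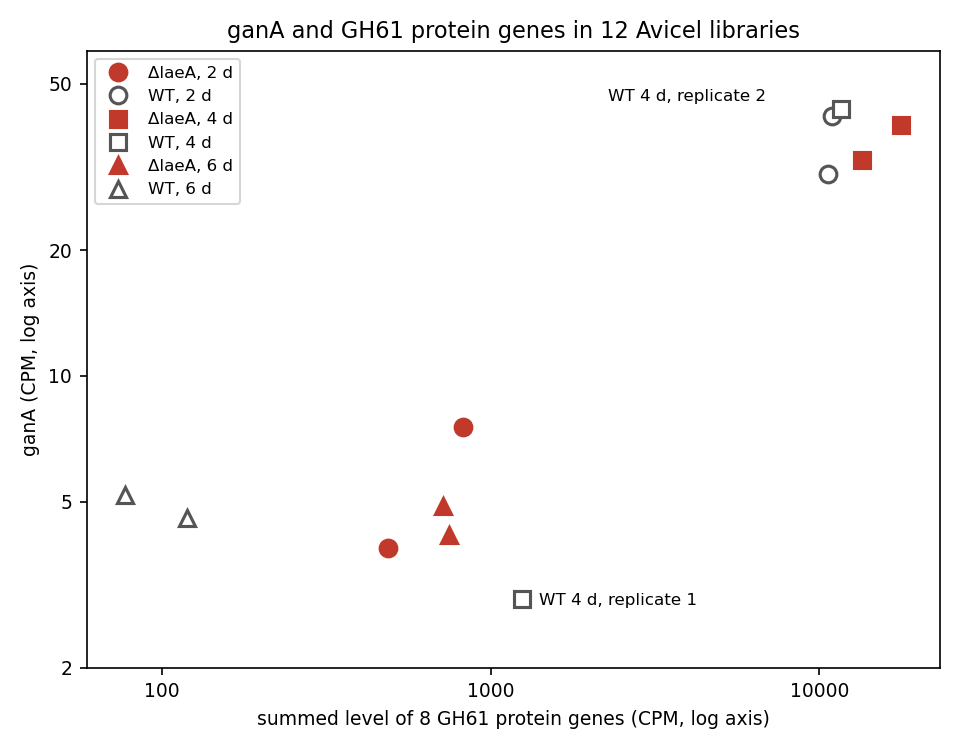
ganA (vertical axis, CPM, log axis) against the summed level of 8 GH61 protein genes (horizontal axis, CPM, log axis) in the 12 Avicel libraries, with filled red symbols for ΔlaeA, open grey symbols for WT, and circles, squares and triangles for 2, 4 and 6 d. The 5 libraries with ganA above 30 CPM have a GH61 sum of at least 10586 CPM and the others of at most 1247 CPM. The WT libraries at 4 d, marked by name, fall on both sides, at 2.93 and 43.5 CPM of ganA. Genes of high level, such as Mycth_112089 in WT at 2 d, weigh most in the sum.

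Enzymes that act on pectin, galactan and arabinan gave calls in both directions. Of 8 such genes, 2 were lower in ΔlaeA at 2 d, the pectin lyase-like gene Mycth_110806 (-1.69 ± 0.33) and the glycoside hydrolase family 43 gene Mycth_2072383 (2.29 CPM against 43.4 CPM in WT, log2 -4.24 ± 0.37), and none was higher, against 10.7% lower and 4.8% higher over all genes. At 4 d 3 were higher and 2 lower in ΔlaeA, with a median of 0.68 against 0.01 over all genes, of which 9.17% were called higher and 9.95% lower. Leaving out a WT library gave 2 or 4 higher. The beta-galactosidase gene Mycth_2094324, whose product releases galactose, rose by 2.15 ± 0.29, with WT libraries at 6.36 and 13.6 CPM, and gave 1.71 without replicate 1 of WT and 2.81 without replicate 2. The family 43 gene Mycth_2064169 rose by 2.44 ± 0.62, with WT libraries at 6.70 and 32.9 CPM, and gave 1.72 without replicate 1 of WT and 4.02 without replicate 2. All 4 of these values were called. The beta-galactosidase/glucuronidase gene Mycth_114497 ran the other way, with 60.2 and 76.8 CPM in ΔlaeA at 4 d against 1982 and 1683 CPM in WT, where the WT libraries lay close together (log2 -4.74 ± 0.26, edgeR quasi-likelihood adjusted p = 1.49e-09). In WT at 2 d against glucose 4 of the 8 were called higher and 1 lower, with a median of 1.23, against 9.99% higher and 5.64% lower over all genes.

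phy1 varied least and was highest in the libraries labelled Δcre-1, in which the regulator of carbon catabolite repression is the labelled deletion. phy1 had 103 and 95.6 CPM in Δcre-1, 79.5 and 55.8 CPM in Δgrf-3, 49.3 CPM in the Δgrf-2 library, 57.2 and 54.5 CPM in Δgrf-1 and 56.2 and 59.2 CPM in ΔlaeA, against 36.2 and 50.5 CPM in WT on glucose. The Δcre-1 libraries lay above all other libraries of the series. Those of Δgrf-3, Δgrf-1 and ΔlaeA also lay above both WT libraries, and the Δgrf-2 library lay between them. phy1 was the only one of the enzyme genes called in Δcre-1, where 35.6% of all genes were called and 15.4% were called higher. As lcc1 was under 3 counts in both groups, this is not read as a result about the enzyme genes. The log2 fold change of phy1 in Δcre-1 was 1.19 ± 0.17 (95% interval 0.83 to 1.56, edgeR quasi-likelihood adjusted p = 1.95e-05).

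That call depended on the scaling. Scaled by library totals only, phy1 gave 0.60 (adjusted p = 0.00475), below the fold threshold, while the median of all genes was -0.69 instead of -0.10, so that phy1 stood about as far above the median in both. It also fell just below the fold threshold without replicate 1 of WT on glucose (0.97). In Δgrf-3 phy1 passed the test but not the fold threshold (0.64 ± 0.17, adjusted p = 0.00996). In ΔlaeA (0.41 ± 0.17, adjusted p = 0.0809), Δgrf-1 (0.36 ± 0.17, adjusted p = 0.110) and Δgrf-2 (0.18 ± 0.21, adjusted p = 0.625) it did not pass the edgeR quasi-likelihood test. The 5 strains were compared with the same 2 WT libraries, so these values are not independent of each other.

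On Avicel phy1 was lower in ΔlaeA than in WT at 4 d and was not called at 2 d or 6 d. At 2 d it had 39.0 and 39.7 CPM in ΔlaeA against 53.2 and 52.3 CPM in WT, without overlap (log2 -0.43 ± 0.17, adjusted p = 0.0617, not called). At 4 d it had 25.3 and 24.8 CPM in ΔlaeA, the lowest libraries of the series for this gene, against 59.6 and 56.5 CPM in WT. The log2 fold change was -1.21 ± 0.17 (95% interval -1.58 to -0.85, edgeR quasi-likelihood adjusted p = 5.08e-05), and it stayed between -1.25 and -1.18, and called, when any library of these groups was left out. The WT libraries that disagreed on ganA at 4 d thus lay close together for phy1.

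At 6 d phy1 had 41.8 and 48.3 CPM in ΔlaeA against 49.2 and 40.5 CPM in WT, and the groups overlapped. The log2 difference was 0.01 ± 0.17 with an interval of -0.35 to 0.37, the narrowest of the 3 genes on that day. Within ΔlaeA phy1 gave -0.55 ± 0.17 at 2 d against glucose, -0.65 ± 0.17 at 4 d against 2 d, and 0.85 ± 0.17 at 6 d against 4 d. Each passed the edgeR quasi-likelihood test (adjusted p of 0.0215, 0.00496 and 0.000702) but not the fold threshold. In WT the same steps gave 0.28 ± 0.17, 0.14 ± 0.17 and -0.37 ± 0.17, with adjusted p from 0.0854 to 0.542. The interaction between 4 and 6 d was called, at 1.22 ± 0.24 (adjusted p = 0.00106). Those for the earlier steps, -0.84 ± 0.24 and -0.79 ± 0.24, passed the test (adjusted p of 0.0215 and 0.0183) and not the fold threshold, though the first was called without replicate 2 of WT on glucose (-1.10).

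Other enzymes that release phosphate gave few calls, in both directions. Of 5 such genes, 2 were lower and none higher in Δcre-1, the alkaline phosphatase gene Mycth_116363 (2.55 CPM against 8.40 CPM in WT, log2 -1.72 ± 0.25) and the inositol monophosphatase gene Mycth_2067418 (-1.25 ± 0.29). The median of the 5 was -0.93 against -0.10 over all genes, of which 20.2% were called lower and 15.4% higher, so 2 of 5 is not read as a result about these enzymes. In ΔlaeA at 4 d the inorganic pyrophosphatase gene Mycth_106442 was higher, with 37.4 CPM against 12.9 CPM in WT (1.54 ± 0.21), and the inositol monophosphatase gene Mycth_2050951 lower (-1.37 ± 0.51), a call that ended without any 1 of the 4 libraries (-1.78 to -1.04). The median there was -0.16, against 0.01 over all genes, of which 9.17% were called higher and 9.95% lower.

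lcc1 was near the limit of detection on glucose, so its counts are given in place of CPM. It had 5 and 11 counts in the libraries labelled ΔlaeA, 3 and 13 in Δgrf-1, 25 in the Δgrf-2 library, 27 and 15 in Δgrf-3 and 0 and 1 in Δcre-1, against 1 and 0 in WT. WT and Δcre-1 thus stayed below 3 counts in every library, and no fold is given between them. The other strains had at least 3 counts in every library, above both WT libraries.

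Set against the single count in WT, the ratio of lcc1 counts per TMM-scaled total was 39.0 in Δgrf-3 (exact 95% interval 6.63 to 1578) and 44.0 in Δgrf-2 (7.21 to 1809). It was 16.6 in ΔlaeA (2.58 to 697) and 15.7 in Δgrf-1 (2.43 to 657). These intervals cover counting error only. lcc1 was called higher in Δgrf-3 (edgeR quasi-likelihood adjusted p = 0.00707) and in Δgrf-2 (adjusted p = 0.0283), and was not called in ΔlaeA (adjusted p = 0.0618) or Δgrf-1 (adjusted p = 0.0610). The Δgrf-2 call ended without either WT library (adjusted p of 0.0657 and 0.128) and the Δgrf-3 call without replicate 2 of WT (adjusted p = 0.0664), while lcc1 was called in Δgrf-1 without replicate 1 of that strain (4.31). The fitted log2 fold changes of 4.99 and 5.17 depend on the prior count that the fit adds to WT, and leaving out a WT library moved them to between 4.09 and 7.58.

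On Avicel lcc1 was lower in ΔlaeA than in WT at 2 d and at 6 d. At 2 d it had 0.566 and 0.319 CPM in ΔlaeA, from 14 and 8 counts, against 2.14 and 3.49 CPM in WT, from 53 and 80 counts. The groups did not overlap, and the log2 fold change was -2.65 ± 0.69 (95% interval -4.11 to -1.20, edgeR quasi-likelihood adjusted p = 0.00680). The call ended without replicate 2 of WT (-2.26, adjusted p = 0.0548) and without replicate 2 of ΔlaeA (-2.30, adjusted p = 0.0732). At 4 d lcc1 had 0.834 and 0.858 CPM in ΔlaeA against 0.944 and 1.68 CPM in WT, without overlap, a difference of -0.65 ± 0.66 that was not called (adjusted p = 0.451), with an interval of -2.06 to 0.75.

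The widest gap came at 6 d. lcc1 had 2.03 and 0.370 CPM in ΔlaeA, from 56 and 10 counts, against 13.7 and 9.66 CPM in WT, from 336 and 281 counts. The WT libraries were the highest of the series for lcc1, and the ΔlaeA libraries lay far apart, with a gap of 2.21 on the log2 scale, larger than that of 99.7% of genes in the pair. lcc1 was the only one of the 3 enzyme genes called on that day, when 10.4% of all genes were called. The log2 fold change was -3.27 ± 0.61 (95% interval -4.58 to -1.97, edgeR quasi-likelihood adjusted p = 0.00127). It was -4.96 without replicate 1 of ΔlaeA and -2.52 without replicate 2, both called.

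**Figure D3:**
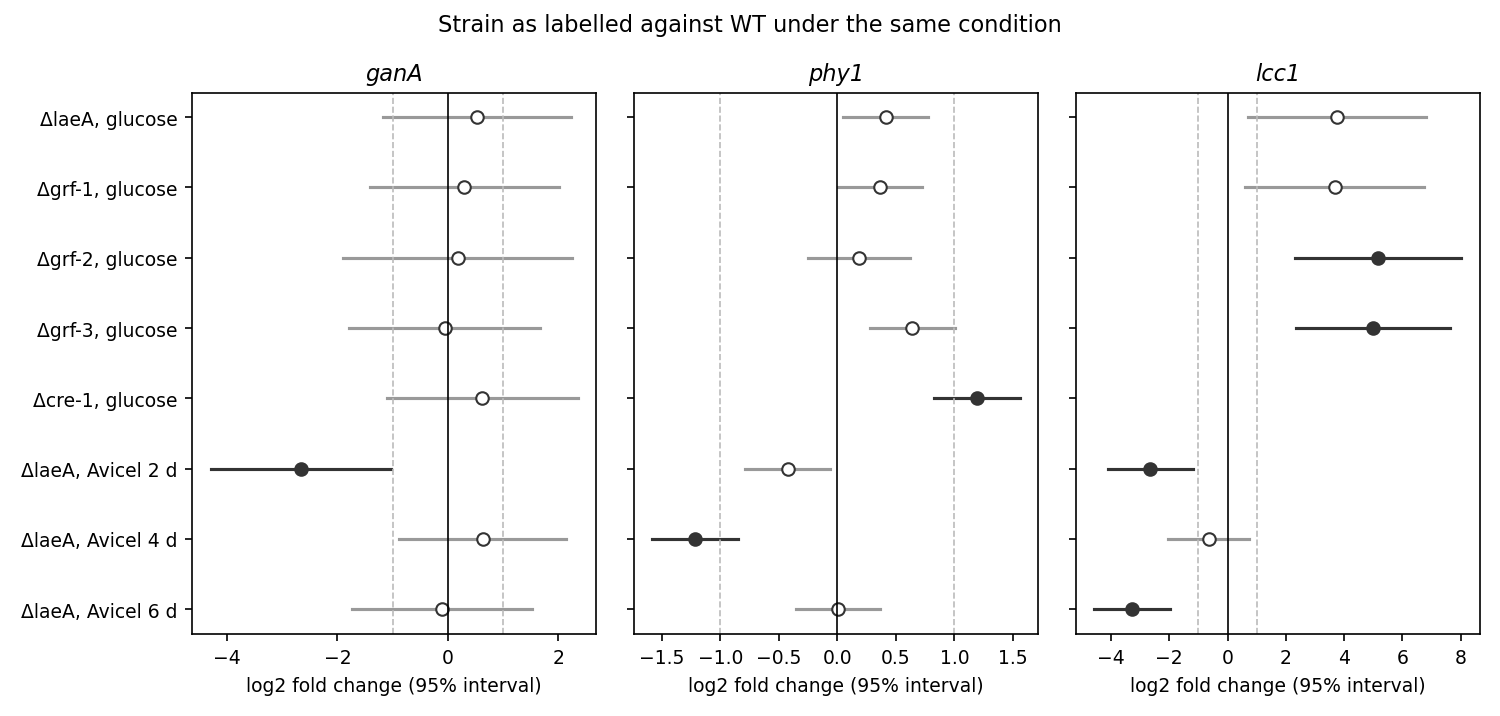
log2 fold changes of ganA, phy1 and lcc1 in each labelled strain against WT under the same condition (horizontal axes), with 95% intervals, filled where called and open where not, and dashed lines at 2-fold. At 2 d on Avicel ganA and lcc1 were called lower in ΔlaeA, at 4 d phy1 and at 6 d lcc1. The glucose values of lcc1 rest on 1 count in WT and depend on the prior count, and Δcre-1 is left out for lcc1 because both groups were under 3 counts.

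In WT lcc1 was higher on Avicel at 2 d than on glucose and rose between 4 and 6 d. Its counts in WT were 53 and 80 on Avicel at 2 d against 1 and 0 on glucose, a ratio per TMM-scaled total of 119 (exact 95% interval 21.0 to 4734). The step was called (edgeR quasi-likelihood adjusted p = 0.000278). Between 2 and 4 d the difference was -1.07 ± 0.61 (adjusted p = 0.169), and between 4 and 6 d lcc1 rose by 3.12 ± 0.61 (adjusted p = 0.000731), with 2.78 to 3.62 when any library of these groups was left out. In ΔlaeA the same steps gave 0.19 ± 0.84, 0.93 ± 0.74 and 0.51 ± 0.66, with adjusted p from 0.314 to 0.889.

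The steps differed between the strains at the first and the last. The interaction for lcc1 was called between glucose and Avicel at 2 d (adjusted p = 0.00789), where the fitted value of -6.41 ± 1.54 again rests on the single WT count on glucose and was not called without replicate 2 of ΔlaeA on glucose (-5.86, adjusted p = 0.0587). Between 4 and 6 d it was -2.62 ± 0.90 (adjusted p = 0.0321). This call ended without replicate 1 of WT at 4 d, either replicate of ΔlaeA at 4 d, replicate 1 of WT at 6 d, or replicate 2 of ΔlaeA at 6 d, with values between -2.63 and -1.87. Between 2 and 4 d it was 2.00 ± 0.96 and not called (adjusted p = 0.119).

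**Figure D4:**
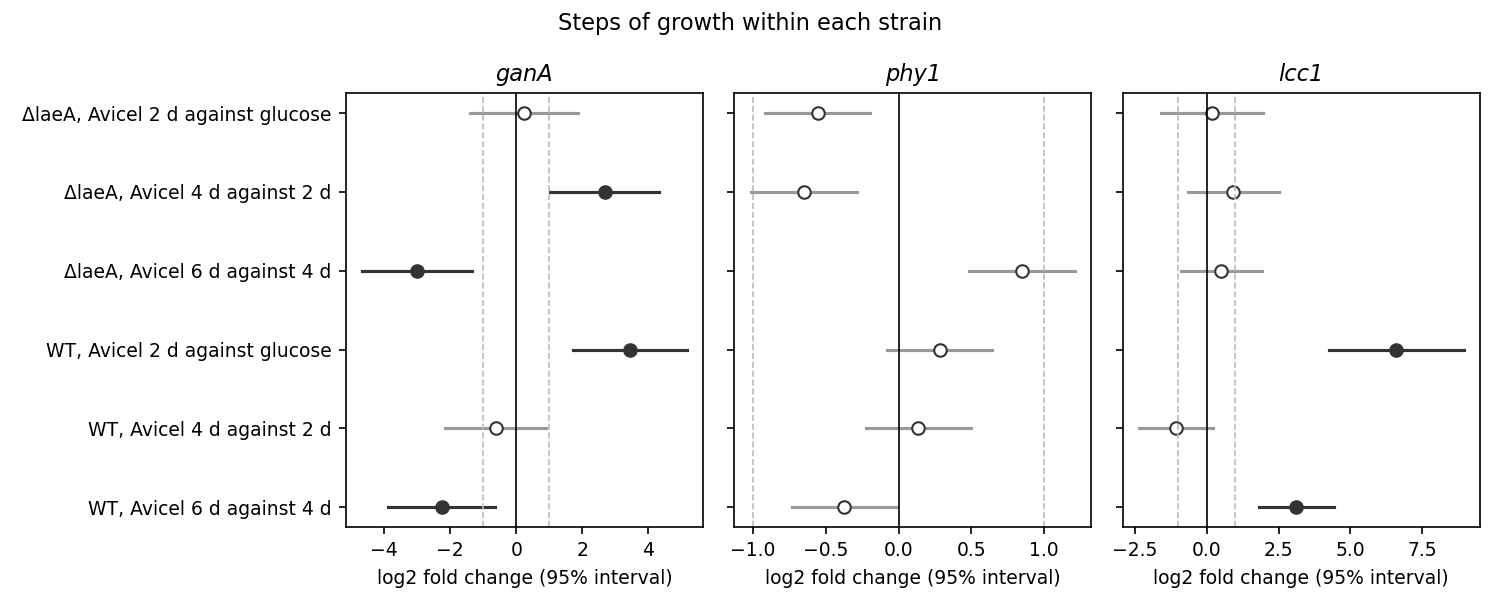
log2 fold changes of ganA, phy1 and lcc1 for the steps from glucose to Avicel at 2 d and between the days on Avicel (horizontal axes), within ΔlaeA (upper 3 lines) and within WT (lower 3 lines), with 95% intervals, filled where called and open where not, and dashed lines at 2-fold. ganA rose by 2.67 between 2 and 4 d in ΔlaeA and by 3.44 already at 2 d in WT, no step of phy1 was called in either strain, and lcc1 was called in WT only at the first and the last step.

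Other oxidases and peroxidases, chosen by product text, were read beside lcc1. In Δcre-1, where lcc1 stayed under the floor, 3 of 5 such genes were called higher and 1 lower, against 15.4% and 20.2% of all genes. The median of 2.04 was that of the alternative oxidase gene Mycth_109542, which had 1068 and 1137 CPM in Δcre-1 against 57.5 and 478 CPM in WT. It gave 1.20 and was not called without replicate 1 of WT, gave 4.26 and was called without replicate 2, and was not called without either Δcre-1 library, where 1 of the 5 genes was called higher. The laccase-like gene Mycth_2063133 was called higher in Δcre-1 (34.3 CPM against 2.59 CPM in WT, log2 3.73 ± 0.39) and in ΔlaeA on glucose (3.26 ± 0.38), but its values on Avicel were -0.26 ± 0.39, -0.25 ± 0.38 and -0.44 ± 0.36 in ΔlaeA against WT at 2, 4 and 6 d, none of them called. The haem peroxidase gene Mycth_2094824 had 4.17 and 5.07 CPM in ΔlaeA at 6 d against 36.9 and 34.7 CPM in WT (log2 -2.95 ± 0.29, edgeR quasi-likelihood adjusted p = 2.64e-06), and rose by 1.77 ± 0.27 between 4 and 6 d in WT. It was the only one of the 5 oxidase genes called in ΔlaeA against WT at 6 d. The median of the 5 was -0.44 against 0.01 over all genes, of which 7.95% were called lower and 2.41% higher. At 2 d 1 of the 5 was called lower in ΔlaeA and none higher, against 10.7% and 4.8% of all genes. This was the chloroperoxidase gene Mycth_2067982, with 1 and 4 counts in ΔlaeA against 200 and 192 in WT. Mycth_109542 had 2077 and 2480 CPM in ΔlaeA at 2 d against 745 and 612 CPM in WT, without overlap, but did not pass the test (1.75 ± 0.82, adjusted p = 0.118). At 4 d, when 9.95% of all genes were called lower and 9.17% higher, 2 of the 5 were called lower and none higher. These 2 were Mycth_2094824 (-1.10 ± 0.28) and Mycth_109542 (-2.52 ± 0.85). Without replicate 1 of WT at 4 d neither was called (-0.92 and -1.49), and without replicate 2 of ΔlaeA at 4 d Mycth_109542 was not (-1.81).

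The profiles of the 3 enzyme genes were compared over the 12 group means. On the log2 CPM scale Pearson r was 0.33 between ganA and lcc1, -0.28 between phy1 and lcc1, and -0.40 between ganA and phy1, given as a description over groups that share carbon source and strain. Among 7727 genes with a group mean of at least 10 CPM, the profiles most like ganA were those of Mycth_62625 (r = 0.955), the translocation protein gene Mycth_2312007 (r = 0.95) and Mycth_2305759 (r = 0.949), each highest in ΔlaeA on Avicel at 4 d. Those most like phy1 were Mycth_2138515 (r = 0.939), Mycth_2302034 (r = 0.922) and Mycth_2294243 (r = 0.920), each highest in Δcre-1. For lcc1 the nearest were Mycth_2300604 (r = 0.836), Mycth_2140707 (r = 0.820) and Mycth_2298840 (r = 0.819), each highest in WT on Avicel at 6 d. Their group means ran from 55.8 to 82.1, 9.58 to 181 and 42.7 to 60.9 CPM, against 0.0243 to 11.7 CPM for lcc1. The r values thus describe the shape of a profile and not the size of its changes. By Spearman rank 0 of the 3 genes named for each enzyme were among its 3 nearest, so these names depend on the measure.

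In the reference annotation no neighbouring gene overlapped any of the 3 enzyme genes. The genes next to ganA, Mycth_2107102 and Mycth_2107104, gave r = -0.79 and -0.55 over the 12 groups. Those beside phy1, Mycth_117620 and Mycth_2310013, gave r = -0.57 and -0.51. Those beside lcc1, Mycth_2065457 and Mycth_95391, gave r = 0.28 and 0.61.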

How the data were processed

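RNA-seq was read from the table of counts per gene that the authors deposited. Per the labels and the study's methods, the authors used TopHat2 2.0.8b for alignment to the species' genome, then counted reads on unique exons with HTSeq, of which the submitters' notes give 0.5.4p2 and the methods another version. Which build and strand setting were used is not given in the sources used here. The 1 column not used as a sample, that of Δgrf-2 replicate 1, carried RPKM which the authors had deposited in place of counts. Divided into the counts of the Δgrf-1 libraries it gave lengths whole to 0.01 base at 8865 of 8865 genes, against 1.99% with the Δgrf-2 library, so it served only for gene lengths (ganA 1053, phy1 1488 and lcc1 1851 bases). The single Δgrf-2 library is assumed to vary like the other groups. The 2 lines without a gene were left out.

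A single edgeR 4.0.16 model under R 4.3.3, with a coefficient for each of the 12 groups, took in all 23 libraries, with TMM scaling, filterByExpr (8827 genes kept), robust dispersions (common dispersion 0.0312, 11 residual degrees of freedom) and the quasi-likelihood F-test with Benjamini-Hochberg adjustment. To be called, a gene had to reach 2-fold (1 on the log2 scale, either way) with its adjusted p under 0.05. CPM used TMM-scaled totals. The intervals of count ratios are exact for the 95% level and, like the floor of 3 counts, cover counting error only.

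The members and gene lists were chosen with earlier results of these data known. The lists were taken from product text in the study's gene table, which was held only in part. Named genes were the 3 enzymes, these lists, the deleted genes, the cellulase activators, and per enzyme the 3 genes with the highest Pearson correlation of group mean log2 CPM (prior count 2). Gene order came from RefSeq assembly ASM22609v1, which matched 9087 genes and was used for names and neighbours only. The alternatives were DESeq2 1.42.0, RLE size factors, a fit on only the groups compared, library totals without TMM, a filter of 10 CPM in 2 libraries or none at all, a replicate block, adjusted p alone, the fit without the Δgrf-3 and WT 4 d libraries where these were not compared, and each library left out. Plots used matplotlib 3.10.9 under Python 3.11.15.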

Additional observations from a re-analysis of the deposited data

Results flagged for a closer look

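Steps that differed between ΔlaeA and WT by the test of the difference itself (the change in ΔlaeA minus the change in WT, edgeR quasi-likelihood, Benjamini-Hochberg) were found for each enzyme gene. For lcc1 the step from glucose to Avicel at 2 d differed by -6.41 (adjusted p = 0.00789) and that between 4 and 6 d by -2.62 (adjusted p = 0.0321). For ganA the step between 2 and 4 d differed by 3.30 (adjusted p = 0.0238). For phy1 the step between 4 and 6 d differed by 1.22 (adjusted p = 0.00106). Of all genes these tests called 12.5% for the first step, 23.7% for that between 2 and 4 d and 23.8% for the last. The lcc1 value of -6.41 rests on the single WT count on glucose. When single libraries were left out, the lcc1 values ran from -8.83 to -5.51 and from -4.31 to -1.87, and the ganA value from 2.36 to 6.30. Each of these calls of lcc1 and ganA ended without at least 1 of the libraries. The phy1 value moved least, between 1.11 and 1.37, and stayed called.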

How the results depend on the processing

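Of 678 alternative values over 50 results, 633 stayed called or stayed not called, 26 lost the call and 18 gained it. A further 1 reversed direction where a value was called. With all libraries only 6 results of ganA, 3 of phy1 and 8 of lcc1 were called. All 26 losses and the reversal fell on these called results, so the 633 do not measure how firm the calls are. Values that changed sign without a call on either side count among the 633, as for ganA in ΔlaeA against WT at 4 d (0.64 to -0.26). With each library left out in turn, ganA in ΔlaeA against WT ran from -3.22 to -2.26 at 2 d and from -0.26 to 3.63 at 4 d, and its WT steps from -3.63 to 0.27 (4 d against 2 d) and from -3.17 to 0.73 (6 d against 4 d), the last value, without replicate 2 of WT at 4 d, being the reversal. Its ΔlaeA step from 2 to 4 d ran from 2.27 to 3.23 and its interactions from 2.36 to 6.30 (4 d against 2 d) and from -3.74 to 0.15 (6 d against 4 d). lcc1 ran from 2.38 to 6.09 in Δgrf-1, 4.26 to 7.58 in Δgrf-2, 4.09 to 7.41 in Δgrf-3 and -3.12 to -2.26 in ΔlaeA at 2 d, and its interactions from -8.83 to -5.51 (2 d against glucose) and -4.31 to -1.87 (6 d against 4 d). phy1 ran from 0.97 to 1.45 in Δcre-1 and from -1.10 to -0.62 in the first interaction.

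DESeq2 also called lcc1 in ΔlaeA on glucose (4.03) and in Δgrf-1 (3.91). The first ganA interaction was called by DESeq2 (-3.20), with the filter of 10 CPM (-3.17), in only the groups compared (-3.19) and without the Δgrf-3 and WT 4 d libraries (-3.20). Only the groups compared ended the calls of lcc1 in Δgrf-2 (5.15) and Δgrf-3 (4.96), of ganA in WT at 6 d against 4 d (-2.26) and of the interactions of ganA at 4 d (3.27) and of lcc1 at 6 d (-2.62). There, 38 genes were called in Δgrf-2 and 26 in Δgrf-3, instead of 448 and 1195, with fewer libraries to give the spread. The Δgrf-2 count was 704 without the Δgrf-3 and WT 4 d libraries, and the Δgrf-3 count 781 without its replicate 1. Library totals only ended the phy1 call in Δcre-1 (0.60) and gave one for ΔlaeA at 6 d against 4 d (1.07), the median of all genes having moved with them by more than 0.1 in 10 of 17 comparisons. Adjusted p alone would add phy1 in Δgrf-3 (0.64), in the 3 ΔlaeA steps (-0.55, -0.65 and 0.85) and in 2 interactions (-0.84 and -0.79), and raised the count of all genes called 1.47 to 2.56 times.

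The replicate numbers are not stated to mark shared cultures, and deviations of same-numbered libraries correlated between -0.115 and 0.111. With a replicate block no call of the 3 genes changed (ganA in ΔlaeA at 2 d -2.72, phy1 at 4 d -1.21, lcc1 at 6 d -3.29). Depth limits lcc1 on glucose, where WT held 1 count in all, and 2 libraries a group leave intervals of ganA wider than 2-fold in either direction. The cause of the split between the WT libraries at 4 d was not tested.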
